A study of Mus musculus with 30 samples.

Results

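A set of 7 complement genes was followed in the brains of Tmem106b mutant mice: C1qa, C1qb, C1qc, C4b, C3, C3ar1 and Serping1. They were taken by gene name from a deposited table of normalised RNA-seq values, where 7 of 34871 genes carried these names. All 7 passed the filter on low values used for testing (mean log2 value above 0, 23695 genes).

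The study profiled cerebral hemispheres of 30 mice aged 8 months, 10 in each of 3 genotypes. Tmem106b -/- mice (KO) carried no intact copy of the gene, Tmem106b +/- mice (HET) carried a single one, and Tmem106b +/+ mice (WT) carried both. In each genotype, cohort 1 supplied 3 mice of each sex and cohort 2 supplied 2 of each sex. Tmem106b encodes a membrane protein of lysosomes and late endosomes. The strain, the part of Tmem106b that was targeted and the meaning of the cohort label were not given in the sources used here. Tmem106b itself averaged 7.53 ± 0.08 log2 RPKM in KO mice, 8.58 ± 0.03 in HET mice and 9.17 ± 0.07 in WT mice (SD, n = 10 each), with no overlap between the 3 groups.

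Complement is a cascade of plasma and tissue proteins that tags surfaces for removal. C1q, built from the A, B and C chains encoded by C1qa, C1qb and C1qc, opens the classical pathway. C4 is cleaved next, and its fragments help to form the enzyme that cleaves C3, the central component, whose fragments are read by receptors such as the C3a receptor. C1 inhibitor, encoded by Serping1, blocks the proteases bound to C1q. In the brain, C1q is made mostly by microglia, the resident macrophages, while C4 comes largely from astrocytes and, in some conditions, oligodendrocytes. Serping1 is counted here with the astrocytic genes, although vascular and meningeal cells express it too, and C3 is counted with neither side. Complement proteins are known there for tagging synapses that microglia remove during development.

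The genes covered a wide span of levels. The mean over 30 brains, in log2 RPKM, was 8.65 for C1qa, 8.70 for C1qb and 7.36 for C1qc. C4b averaged 5.98 and Serping1 5.78, whereas C3ar1 averaged 2.72 and C3 1.96. C1qb stood at the 94.6th percentile of all 34871 genes in the table and C3 at the 45.6th. Residual SD between mice, after genotype, sex, cohort and RNA integrity number (RIN) were taken out, was 0.09 for C1qa and C1qb and 0.11 for C1qc. It was 0.12 for C4b, 0.20 for Serping1, 0.26 for C3 and 0.30 for C3ar1. Of the 1000 genes nearest in level to Serping1, 91.7% varied less than it did between mice, their median residual SD being 0.10. The C1q chains also varied more than most genes of their own levels, at the 87.3rd (C1qa), 86.8th (C1qb) and 88.4th (C1qc) percentiles. C3 lay at the other end, at the 7.79th percentile of residual SD among the genes of its own level.

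The C1q chains lie side by side on mouse chromosome 4 (build mm10), within 18675 bases. C1qb occupies chr4:136880129-136886187, C1qc chr4:136889804-136893065 and C1qa chr4:136895917-136898803. Promoters of 2 of the 3 chains were in the RefSeq table used here (build GRCm38.p6), which held 4 of the 7 genes. They are shown because these neighbouring chains varied together between mice. For C1qb the run is the 250 bases before the RefSeq start, the minus strand of chr4:136886201-136886450, read 5′ to 3′. For C1qc it is the 99 bases of that stretch outside the longer gene of the deposited table, the minus strand of chr4:136893066-136893164. Capitals mark GAGGAA, the core of sites bound by PU.1, a factor that macrophages and microglia need, or its reverse complement TTCCTC.
C1qb: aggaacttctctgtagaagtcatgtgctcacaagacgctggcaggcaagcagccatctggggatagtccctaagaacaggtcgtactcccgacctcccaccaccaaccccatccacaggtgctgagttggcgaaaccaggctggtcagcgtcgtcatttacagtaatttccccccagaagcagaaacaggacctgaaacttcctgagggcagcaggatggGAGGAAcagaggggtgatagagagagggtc
C1qc: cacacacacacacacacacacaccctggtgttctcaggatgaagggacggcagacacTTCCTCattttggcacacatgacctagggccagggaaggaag

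In C1qb the hexamer began at base -30, counting the base just before the RefSeq start as -1. In C1qc it lay on the other strand with its first base at -193. Such short runs are common, since 23.3% of 32851 RefSeq promoters hold GAGGAA on either strand within the 250 bases before the start, so the match is a description of the letters only. Over 300 bases, adding 50 past the start, the share was 28.3%. TTCNNNGAA (the GAS motif of STAT factors, present in 8.30% of promoters of 300 bases) and the ISRE motif of interferon factors (in 3.44%) were searched on both strands. Neither was found in the windows of C1qb, C1qc, C3 or C3ar1, nor was GAGGAA in those of C3 and C3ar1.

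C1qb alone among the 7 complement genes passed the threshold in KO against WT brains, where it was higher. Its lowest, median and highest values were 8.67, 8.78 and 9.03 log2 RPKM in KO mice, 8.53, 8.65 and 8.83 in HET mice, and 8.55, 8.60 and 8.79 in WT mice. The ranges overlapped, but all 10 KO mice lay above the WT mean, as in 1.29% of all genes, and 4 lay above the highest WT mouse. The difference of KO over WT, fitted with limma with sex, cohort and RIN as covariates, was 0.18 ± 0.04 (SE) on the log2 scale, or 13.5% (95% interval 7.35 to 20.02%), with a Benjamini-Hochberg adjusted p of 0.0158 over all genes tested. It ranked 107th of 23695 genes by p. In the same comparison 1.00% of all genes were called at an adjusted p under 0.05 and 0.279% were called higher, against 1 of the 7 complement genes. A whole brain hemisphere is a mixture, so more cells of a type and more RNA per cell cannot be told apart here.

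C1qa, the A chain, spanned 8.47 to 8.91 in KO mice (median 8.76), 8.48 to 8.74 in HET mice (median 8.59) and 8.50 to 8.77 in WT mice (median 8.64). Here 5 KO mice were above the highest WT mouse, but 1 was below the lowest. KO over WT came to 0.09 ± 0.04 and did not pass (limma, adjusted p = 0.344). C1qc, the C chain, spanned 7.25 to 7.62 in KO mice (median 7.44), 7.15 to 7.50 in HET mice (median 7.30) and 7.19 to 7.50 in WT mice (median 7.34). Its difference of KO over WT was 0.11 ± 0.05 (limma, adjusted p = 0.355), and 8 of 10 KO mice were above the WT mean. The unadjusted p-values of these chains were 0.0306 and 0.0331, and 2846 of the 23695 genes had an unadjusted p under 0.05.

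Whether C1qb changed relative to its partner chains was described within each mouse and not tested. C1qa minus C1qb averaged -0.09 ± 0.07 in KO mice, -0.06 ± 0.07 in HET mice and 0.00 ± 0.07 in WT mice (SD, n = 10 each). The KO mice spanned -0.19 to 0.01 and the WT mice -0.08 to 0.14, so the groups overlapped. C1qb minus C1qc averaged 1.37 ± 0.07 in KO mice, 1.35 ± 0.09 in HET mice and 1.30 ± 0.08 in WT mice, and C1qa minus C1qc 1.28 ± 0.06 in KO mice, 1.28 ± 0.10 in HET mice and 1.30 ± 0.07 in WT mice.

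C4b, which encodes the C4 component of the classical pathway, rose in KO brains against HET brains. Its lowest, median and highest values were 6.02, 6.12 and 6.23 log2 RPKM in KO mice, 5.58, 5.86 and 6.20 in HET mice, and 5.71, 5.94 and 6.14 in WT mice. All 10 KO mice lay above the HET mean, as in 1.00% of all genes, and above the WT mean too. A single HET mouse at 6.20 and the upper WT mice reached into the KO range. The difference of KO over HET was 0.29 ± 0.05 (limma, adjusted p = 0.0142), which is 21.9% (95% interval 12.9 to 31.7%), the 22nd smallest p of all genes. In that comparison 0.118% of all genes were called and 0.0295% were called higher. The difference of KO over WT, 0.18 ± 0.05, was of a size with that of C1qb but did not pass (adjusted p = 0.128, rank 529). The SD between mice was 0.06 in KO brains, 0.16 in HET brains and 0.15 in WT brains, the KO value being the smallest among the 7 genes, and this contrast in spread was not tested.

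**Figure D1:**
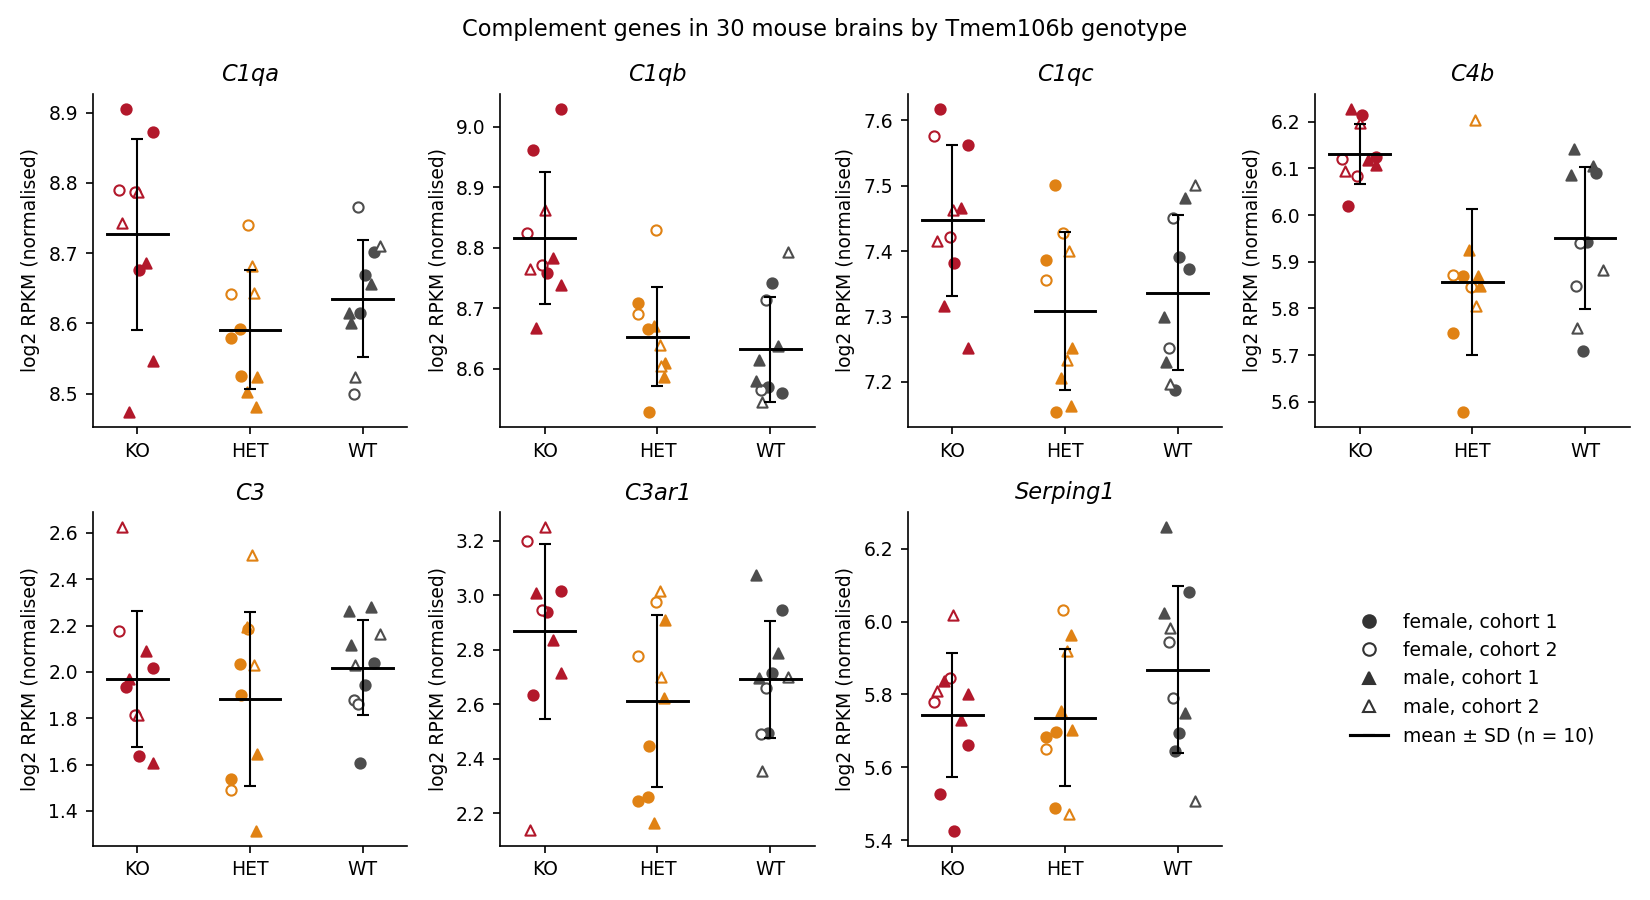
Deposited log2 RPKM of the 7 complement genes in each of 30 brains (y axis, a separate scale per panel), with KO, HET and WT mice from left to right; shapes give the sex, filled and open points cohorts 1 and 2, and bars the mean ± SD of 10 mice. The groups overlap in every panel, and the KO points of C4b lie between 6.02 and 6.23, all above the WT mean of 5.95.

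C4b has a close neighbour, C4a, a C4 copy that in mice is known as sex-limited protein. C4b lies at chr17:34728380-34743882 and C4a at chr17:34809092-34823464 (mm10), 65209 bases apart. The GENCODE M21 transcripts C4b-201 and C4a-207 aligned over 5367 bases, of which 96.1% were identical, with a longest identical run of 433 bases. Of all 100-base windows of the C4b transcript, 16.5% occur unchanged in C4a, and of 50-base windows 35.2%. How reads shared by both genes were counted was not given in the sources used here, so the split between C4b and C4a is uncertain. The 60 coding bases where the 2 transcripts differ most are shown because reads from such stretches can tell the genes apart. They are coding bases 2705 to 2764 of C4b-201 in the direction of transcription, and capitals mark the 13 bases that differ.
C4b: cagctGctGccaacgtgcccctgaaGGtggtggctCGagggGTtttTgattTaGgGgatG
C4a: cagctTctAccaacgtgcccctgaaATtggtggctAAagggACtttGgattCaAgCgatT

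C4a was far lower than C4b, at 2.87 ± 0.09 log2 RPKM in KO mice, 2.61 ± 0.15 in HET mice and 2.60 ± 0.13 in WT mice (SD, n = 10 each). Its difference was 0.27 ± 0.08 for KO over WT (limma, adjusted p = 0.0966) and 0.27 ± 0.08 for KO over HET (adjusted p = 0.181), so neither passed. Once genotype, sex, cohort and RIN were taken out, C4a and C4b were nearly unrelated over the 30 brains (r = 0.03, rho = 0.01).

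C3, the component on which all complement pathways converge, did not pass in any genotype comparison. It spanned 1.61 to 2.63 log2 RPKM in KO mice (median 1.95), 1.32 to 2.50 in HET mice (median 1.96) and 1.60 to 2.28 in WT mice (median 2.03). It lies at chr17:57203970-57228136 (mm10). The difference of KO over WT was -0.07 ± 0.13 (limma, adjusted p = 0.893), and its 95% interval in percent ran from -20.5 to 14.4. A small RNA gene, Mir6978, overlaps C3 in the table and averaged -0.71.

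C3ar1 encodes the C3a receptor, which in brain is found on microglia, and lies at chr6:122847138-122856161. It spanned 2.14 to 3.25 log2 RPKM in KO mice (median 2.94), 2.16 to 3.02 in HET mice (median 2.66) and 2.36 to 3.07 in WT mice (median 2.70). A KO mouse at 2.14 was the lowest of all 30, while 2 KO mice were above the highest WT mouse. The difference of KO over WT was 0.18 ± 0.14 (limma, adjusted p = 0.661), the same size as that of C1qb with an error over 3 times as large.

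Serping1 encodes the inhibitor of C1r and C1s, the proteases that C1q activates, and lies at chr2:84765387-84775444. It spanned 5.43 to 6.02 log2 RPKM in KO mice (median 5.79), 5.47 to 6.03 in HET mice (median 5.70) and 5.51 to 6.26 in WT mice (median 5.87). KO over WT came to -0.13 ± 0.08 (limma, adjusted p = 0.601), with 9 of 10 KO mice below the WT mean. All 3 groups overlapped over most of their ranges.

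**Figure D2:**
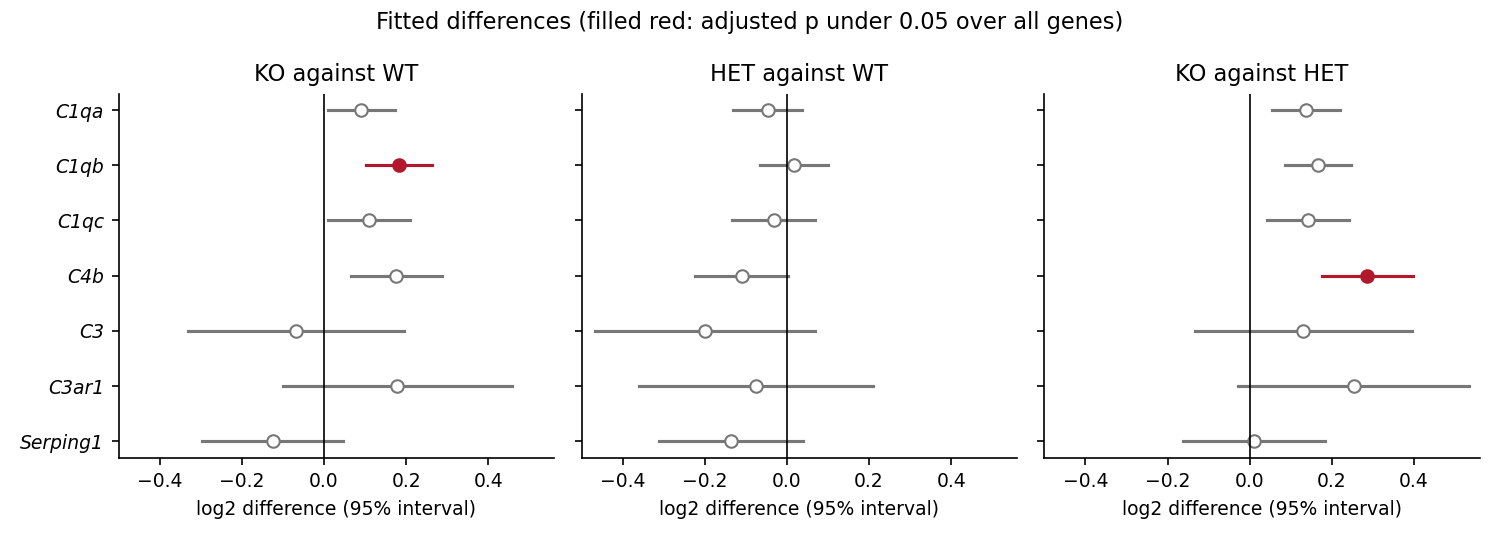
Fitted log2 differences (x axis) of the 7 complement genes with 95% intervals, for KO against WT, HET against WT and KO against HET; filled red points have an adjusted p under 0.05 over all genes. C1qb is filled at 0.18 in KO against WT and C4b at 0.29 in KO against HET, and HET against WT holds no filled point.

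HET brains did not differ from WT brains in any of the 7 genes at an adjusted p under 0.05 (limma), nor at an unadjusted p under 0.05. In that comparison 0.00422% of all genes were called and 6.32% had an unadjusted p under 0.05. The differences of HET over WT were 0.02 ± 0.04 for C1qb, -0.05 ± 0.04 for C1qa and -0.03 ± 0.05 for C1qc. They were -0.11 ± 0.06 for C4b, -0.20 ± 0.13 for C3, -0.07 ± 0.14 for C3ar1 and -0.14 ± 0.09 for Serping1. The interval of C4b ran from -14.3 to 0.153% and that of C1qb from -4.44 to 7.10%.

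Of the 7 genes, 6 had their lowest genotype mean in HET brains, an order of means found in 31.7% of all genes tested. C1qa, C1qc, C4b and C3ar1 ran KO above WT above HET, which 17.8% of genes did. C3 and Serping1 ran WT above KO above HET (13.9% of genes), and C1qb ran KO above HET above WT (20.4% of genes). KO means were above HET means in 7 of 7 genes, against 52.1% of all genes, and above WT means in 5 of 7, against 53.2%. The C1q chains vary together, so these counts do not rest on 7 separate genes.

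Between KO and HET brains, the C1q chains and C3ar1 also lay on the higher side without passing. C1qa, C1qb, C1qc and C4b had an unadjusted p under 0.05, as did 8.66% of all genes. The differences were 0.17 ± 0.04 for C1qb (limma, adjusted p = 0.0989), 0.14 ± 0.04 for C1qa (0.220) and 0.14 ± 0.05 for C1qc (0.339). They were 0.25 ± 0.14 for C3ar1 (adjusted p = 0.635), 0.13 ± 0.13 for C3 (0.839) and 0.01 ± 0.08 for Serping1 (0.989). The comparisons share the KO, HET or WT mice with each other, so they are not independent views of a gene. The median of the 7 differences was 0.11 for KO over WT, -0.07 for HET over WT and 0.14 for KO over HET, beside 0.01, 0.00 and 0.00 over all genes tested.

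With the number of deleted copies (0, 1 or 2) as a straight line in place of the genotype, C1qb passed at 0.09 ± 0.02 per copy (limma, adjusted p = 0.0233). In that fit 1.02% of all genes were called and none of the other 6 complement genes was. C4b had a slope of 0.09 ± 0.03 (adjusted p = 0.244), its HET mean being the lowest of the 3.

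No complement gene had a KO over WT difference that itself differed between sexes or between cohorts past the threshold. The KO over WT difference of C1qb between group means was 0.24 in females and 0.13 in males, and 0.15 in cohort 2 and 0.21 in cohort 1. The test of the sex difference itself gave 0.13 ± 0.08 (limma interaction, adjusted p = 0.777), and that of the cohort difference (cohort 2 minus cohort 1) -0.06 ± 0.08 (adjusted p = 0.895). For C1qa, KO over WT was 0.16 in females and 0.03 in males (limma interaction, adjusted p = 0.741). For C1qc it was 0.18 in females and 0.04 in males (adjusted p = 0.770). No gene was called in the sex interaction, where 7.10% of all genes had an unadjusted p under 0.05 and none of the 7 did. In the cohort interaction 0.0338% of all genes were called, and none of the 7. C4b in KO over HET brains differed by 0.33 in females and 0.22 in males, and by 0.19 in cohort 2 and 0.33 in cohort 1. For C3ar1 the HET over WT difference was 0.32 in cohort 2 and -0.34 in cohort 1, and the gap between cohorts was not tested.

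Between females and males 0 of the 7 genes passed, while 0.333% of all genes did. C1qa alone had an unadjusted p under 0.05, as did 12.5% of all genes, at 0.08 ± 0.03 for females over males (limma, adjusted p = 0.302). The lower quartile of the libraries was -0.26 ± 0.09 in females (SD, n = 15) and -0.84 ± 0.22 in males (SD, n = 15). Its part in sex differences of low genes such as C3 and C3ar1 was not tested. Between cohort 2 and cohort 1, 17.5% of all genes were called and 0 of the 7.

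The microglial genes C1qa, C1qb and C1qc were then set against the astrocytic genes C4b and Serping1 within each mouse. The mean of the C1q chains was 8.33 ± 0.11 log2 RPKM in KO mice, 8.18 ± 0.08 in HET mice and 8.20 ± 0.09 in WT mice (SD, n = 10 each). The mean of C4b and Serping1 was 5.94 ± 0.10 in KO mice, 5.80 ± 0.14 in HET mice and 5.91 ± 0.17 in WT mice. The first minus the second came to 2.39 ± 0.18 in KO mice, 2.39 ± 0.16 in HET mice and 2.29 ± 0.21 in WT mice, and the ranges overlapped over most of their span. Within the astrocytic pair the signs were opposite in KO over WT brains, with C4b at 0.18 ± 0.05 and Serping1 at -0.13 ± 0.08, neither of which passed. Of the microglial genes, C1qb and C3ar1 stood at 0.18 as well, C1qc at 0.11 and C1qa at 0.09, and only C1qb passed.

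Markers of the source cells were read beside these values. None of 15 microglial markers such as Cx3cr1, P2ry12 and Tmem119 passed in KO against WT, and their median difference was 0.01, with members from -0.12 to 0.18. At an unadjusted p under 0.05 there were 6 of the 15 (Trem2 and Tyrobp above 0, and Cx3cr1, Csf1r, Sall1 and Selplg below), beside 2846 of the 23695 genes tested. All 15 were above the filter on low values. Their mean level was 6.49 ± 0.09 in KO mice (range 6.34 to 6.62), 6.41 ± 0.05 in HET mice (6.32 to 6.48) and 6.47 ± 0.10 in WT mice (6.30 to 6.64). In KO over HET brains 13 of the 15 microglial markers lay above 0, with a median of 0.06 and none called. With the mean of this list as a further covariate, C1qb kept 0.17 in KO over WT (limma, adjusted p = 0.00329). C4b kept 0.26 in KO over HET but lost its call (adjusted p = 0.0612). The C1q chains, not called in KO over HET, stood there at 0.11 (C1qb), 0.08 (C1qa) and 0.07 (C1qc) with this covariate. Without it they stood at 0.17, 0.14 and 0.14. None of 7 markers of border macrophages passed in KO against WT, with a median of 0.07, nor in KO against HET, where 6 of 7 lay above 0 with a median of 0.21 and none had an unadjusted p under 0.05. Their mean level was 2.68 ± 0.21 in KO mice (range 2.38 to 2.98), 2.51 ± 0.23 in HET mice (2.23 to 2.87) and 2.51 ± 0.22 in WT mice (2.19 to 2.81). Their part in the call of C4b was not tested. Beside these counts above 0 in KO over HET brains, 52.1% of all genes tested had a KO mean above the HET mean. Markers of the same cell type can vary together, so these counts do not rest on separate genes.

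Of 12 astrocyte markers, all above that filter, none passed in KO against WT, and their mean was 9.22 ± 0.02 in KO mice (range 9.18 to 9.26), 9.22 ± 0.04 in HET mice (9.16 to 9.26) and 9.24 ± 0.03 in WT mice (9.19 to 9.29). With that mean as a covariate C1qb was at 0.16 in KO over WT (adjusted p = 0.0489) and C4b at 0.28 in KO over HET (adjusted p = 0.0185). Among 9 markers of reactive astrocytes, Gfap, the intermediate filament protein of astrocytes, was the only one called. It rose by 0.22 ± 0.05 in KO over WT brains (limma, adjusted p = 0.00967) and by 0.26 ± 0.05 in KO over HET brains (adjusted p = 0.00533). In these comparisons 1.00% and 0.118% of all genes were called. Over the 9 markers the median difference was -0.04 in KO over WT brains (from -0.58 to 0.42), with 4 above 0. In KO over HET brains it was -0.01, with 2 of the 9 above 0. The 9 markers together averaged 4.69 ± 0.18 in KO mice (range 4.52 to 5.07), 4.70 ± 0.21 in HET mice (4.52 to 5.25) and 4.71 ± 0.11 in WT mice (4.57 to 4.92). Fibroblast and mural cell markers, 8 in all, had a median of -0.15 in KO over WT brains with none called, and Tek was the single call, lower, of 8 endothelial markers. None of 10 neuronal and 6 choroid plexus markers was called.

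Oligodendrocyte markers were lower in KO brains. All 10, among them Mbp and Fa2h, were called lower in KO over WT brains, as were 0.722% of all genes, with a median of -0.28. In HET over WT brains the median was -0.09 and 0 of the 10 were called. In KO over HET brains it was -0.19 and 6 were called. In these 2 comparisons 0.00422% and 0.118% of all genes were called. The mean of the 10 markers was 9.10 ± 0.08 in KO mice (range 8.99 to 9.24), 9.28 ± 0.04 in HET mice (9.22 to 9.34) and 9.37 ± 0.06 in WT mice (9.26 to 9.44). Their part in the values of C1qb and C4b was not tested. Blood genes (5 haemoglobin and red cell genes) were uneven, the highest mouse being a KO with a list mean of 11.6 against a KO median of 8.76. All 5 lay above 0 in KO over HET brains, with a median of 0.45, and below 0 in HET over WT brains, with a median of -0.34, and none was called in either (limma), nor had any an unadjusted p under 0.05 in KO over HET brains. Their list mean ran from 8.19 to 11.6 in KO mice, 8.15 to 9.34 in HET mice and 7.94 to 9.26 in WT mice, and its part in the complement values was not tested. Of all genes tested, 52.1% had a KO mean above the HET mean, and the blood genes can vary together and are not separate counts. The calls of C1qb in KO over WT and of C4b in KO over HET held with each of the 30 mice left out in turn.

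Between mice, the C1q chains varied together. After genotype, sex, cohort and RIN were taken out, C1qa and C1qb correlated at r = 0.72 and rho = 0.68 over 30 brains (permutation test, adjusted p = 0.000175 and 0.000612 over 35 relations). C1qa and C1qc gave r = 0.70 and rho = 0.74, and C1qb and C1qc r = 0.69 and rho = 0.72, with adjusted p-values of 0.000467 or less. The unadjusted p of 1e-05 behind the smallest of these is the lowest that 100000 permutations can give. Without the 2 brains farthest from the median of the first gene, r was 0.68, 0.70 and 0.65 for these pairs. Within cohorts 1 and 2 it was 0.75 and 0.68 for C1qa with C1qb, 0.71 and 0.70 for C1qa with C1qc, and 0.66 and 0.75 for C1qb with C1qc.

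The mean of the microglial markers followed the C1q chains, with r = 0.67 for C1qa, 0.64 for C1qb and 0.63 for C1qc (permutation test, adjusted p = 0.00077, 0.00077 and 0.00128). The rank correlations were 0.55, 0.71 and 0.65 (adjusted p = 0.00885, 0.000467 and 0.00119). C3ar1, counted as microglial, did not pass with the same list (r = 0.23, rho = 0.28, adjusted p = 0.398 and 0.251). C3ar1 correlated with C4b, at r = 0.57 and rho = 0.58 (permutation test, adjusted p = 0.00425 and 0.00682). That relation had r = 0.55 without the 2 farthest brains, 0.39 in cohort 1 and 0.76 in cohort 2.

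Serping1 correlated with the mean of the astrocyte markers at r = 0.53 and rho = 0.48 (permutation test, adjusted p = 0.0126 and 0.0346), with r = 0.46 without the 2 farthest brains, 0.31 in cohort 1 and 0.71 in cohort 2. C4b did not pass with that list (r = 0.19, rho = 0.15, adjusted p = 0.474 and 0.511) nor with Serping1 (r = 0.33, rho = 0.31, adjusted p = 0.21 and 0.208). C3 with C1qa passed by rank only (r = 0.42, rho = 0.47, adjusted p = 0.0758 and 0.0346). No other pair of the 7 genes passed. The permutations made no allowance for the terms already taken out, so the p-values run low and those near the threshold are uncertain.

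**Figure D3:**
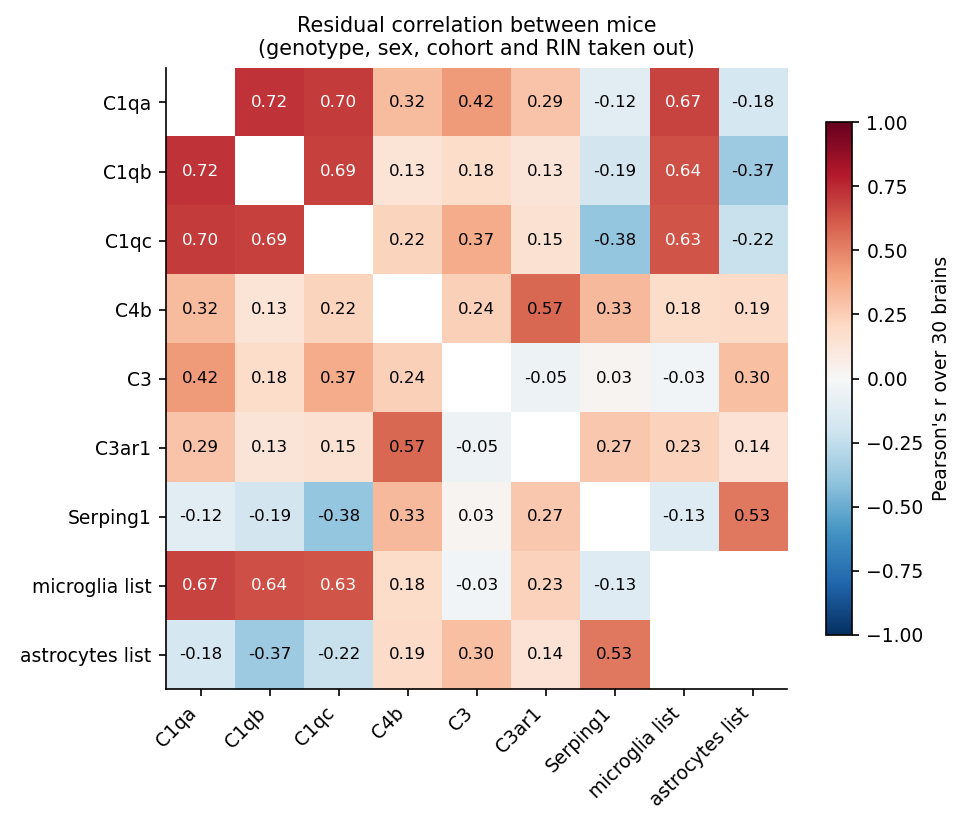
Pearson's r over 30 brains between the 7 complement genes, and of each gene with the mean of the microglial and the astrocyte marker list, after genotype, sex, cohort and RIN were taken out; red is positive and blue negative. The C1q chains form a block of r from 0.69 to 0.72, C4b and C3ar1 reach 0.57, and Serping1 and the astrocyte list 0.53.

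Genes that most resembled 4 of the 7 over the 30 brains were listed from the same residuals, as a description. For C1qb these were Rgs10, a regulator of G protein signalling that is abundant in microglia, at r = 0.77, then Qdpr, Lmf1, Snrpd2 and Cyb5r1 at 0.74 to 0.75. C1qa came at the 11th place and C1qc at the 27th of 23695 genes. For C4b they were Timm21, a mitochondrial import protein, at r = 0.67, and Gfap at 0.66, then Lnx1, Gstz1 and Fgd2 at 0.64 to 0.65, with C3ar1 at the 28th place. For C3 they were Iqsec3, an exchange factor of inhibitory synapses, at r = 0.74, then Gm22540, Grip2, Iba57 and Sec1 at 0.66 to 0.71. For Serping1 they were Pmepa1os and Fmod, the matrix proteoglycan fibromodulin, both at r = 0.79, then Aspg, Tm6sf1 and Morc2a at 0.72 to 0.78.

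The rest of the complement system was read by role. Of 42 further genes 41 were in the table and 32 passed the filter on low values. None of the 32 was called in KO against WT, HET against WT or KO against HET (limma), while 2, 2 and 3 had an unadjusted p under 0.05. Their median difference was -0.03 for KO over WT, -0.01 for HET over WT and 0.01 for KO over HET.

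Among 6 tested genes of the early classical and lectin steps, the largest KO over WT differences were those of C4a, given above, and of C1s1, the C1s protease, at -0.24 ± 0.12 (limma, adjusted p = 0.432). C1s1 averaged 2.54 ± 0.19 log2 RPKM in KO mice and 2.77 ± 0.36 in WT mice (SD, n = 10 each). In the alternative pathway, Cfb (factor B) stood at -0.08 and Cfp (properdin) at -0.04. Of the terminal components, which form the membrane pore, C8g stood at 0.11 and C7 at 0.10. Clu (clusterin), a fluid-phase regulator, stood at -0.05.

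Of 11 membrane regulators, Cd59a, which blocks the membrane pore, had the largest difference at -0.17 ± 0.09 (limma, adjusted p = 0.477), followed by Csmd2 at -0.08. Among 8 receptors, Itgax, an integrin chain of complement receptor 4, stood at 0.38 ± 0.21 (adjusted p = 0.477) and Cr2, complement receptor 2, at -0.33 ± 0.21 (adjusted p = 0.572). Both were near the filter, with Itgax at 0.36 ± 0.48 log2 RPKM in KO mice and -0.04 ± 0.43 in WT mice (SD, n = 10 each).

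**Figure D4:**
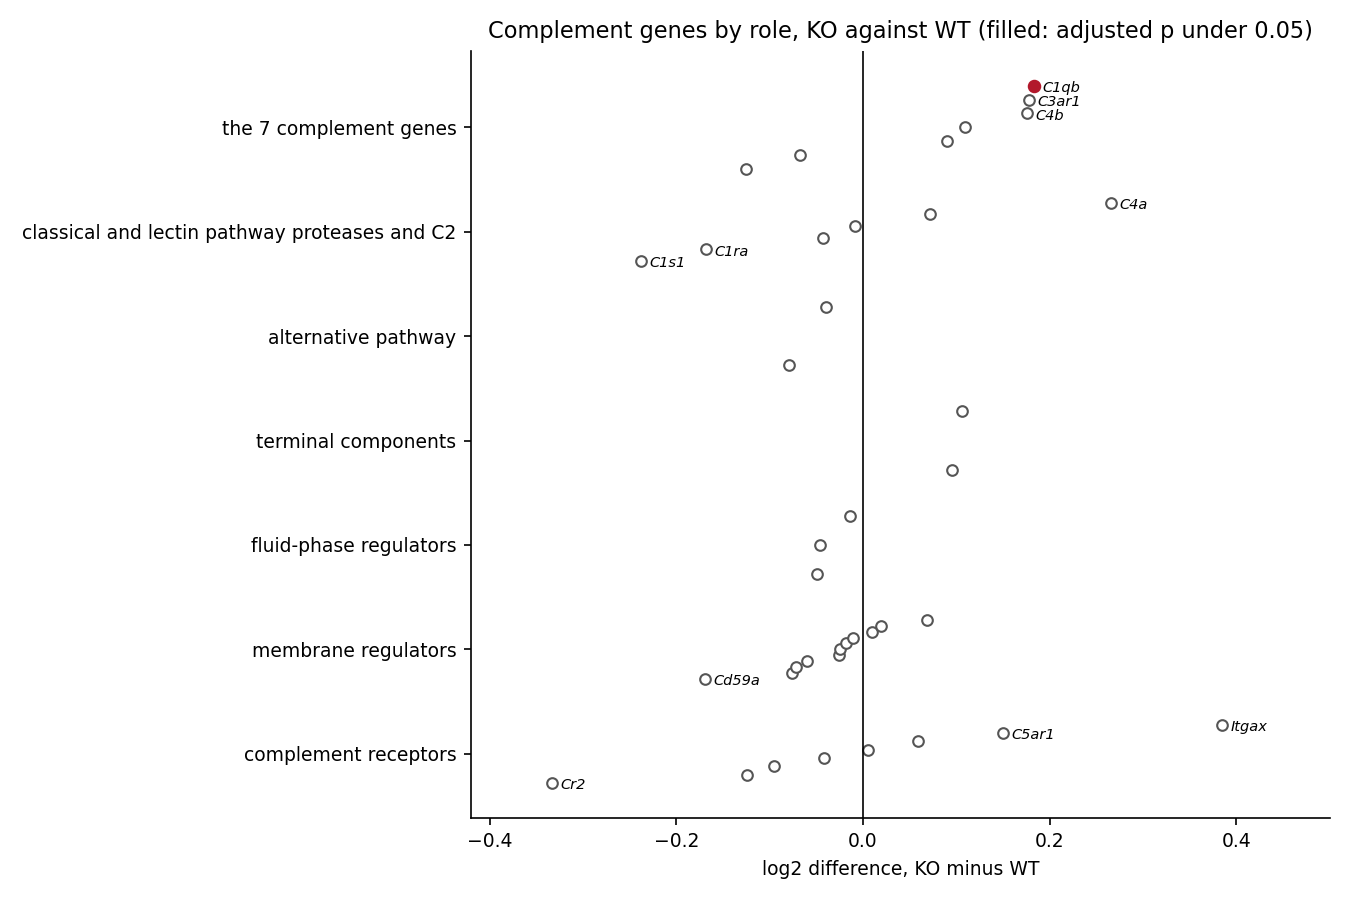
Fitted log2 differences of KO over WT (x axis) for the 7 complement genes and 32 further complement genes, 1 row per role and 1 point per gene; filled points have an adjusted p under 0.05. Only C1qb, at 0.18, is filled, and genes with a difference of at least 0.15 in size carry their names.

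The calls of C1qb in KO over WT and of C4b in KO over HET were lost in most subsets of the mice, while the direction held in each. With females only, C1qb had 0.27 (limma, adjusted p = 0.148) and with males only 0.13 (adjusted p = 0.228). It passed in cohort 1 alone, at 0.21 (adjusted p = 0.0401), and did not in cohort 2 alone, at 0.15 (adjusted p = 0.999). C4b in KO over HET stood at 0.34 in females only (adjusted p = 0.410), 0.23 in males only (adjusted p = 0.438), 0.33 in cohort 1 only (adjusted p = 0.0588) and 0.21 in cohort 2 only (adjusted p = 1.00).

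**Figure D5:**
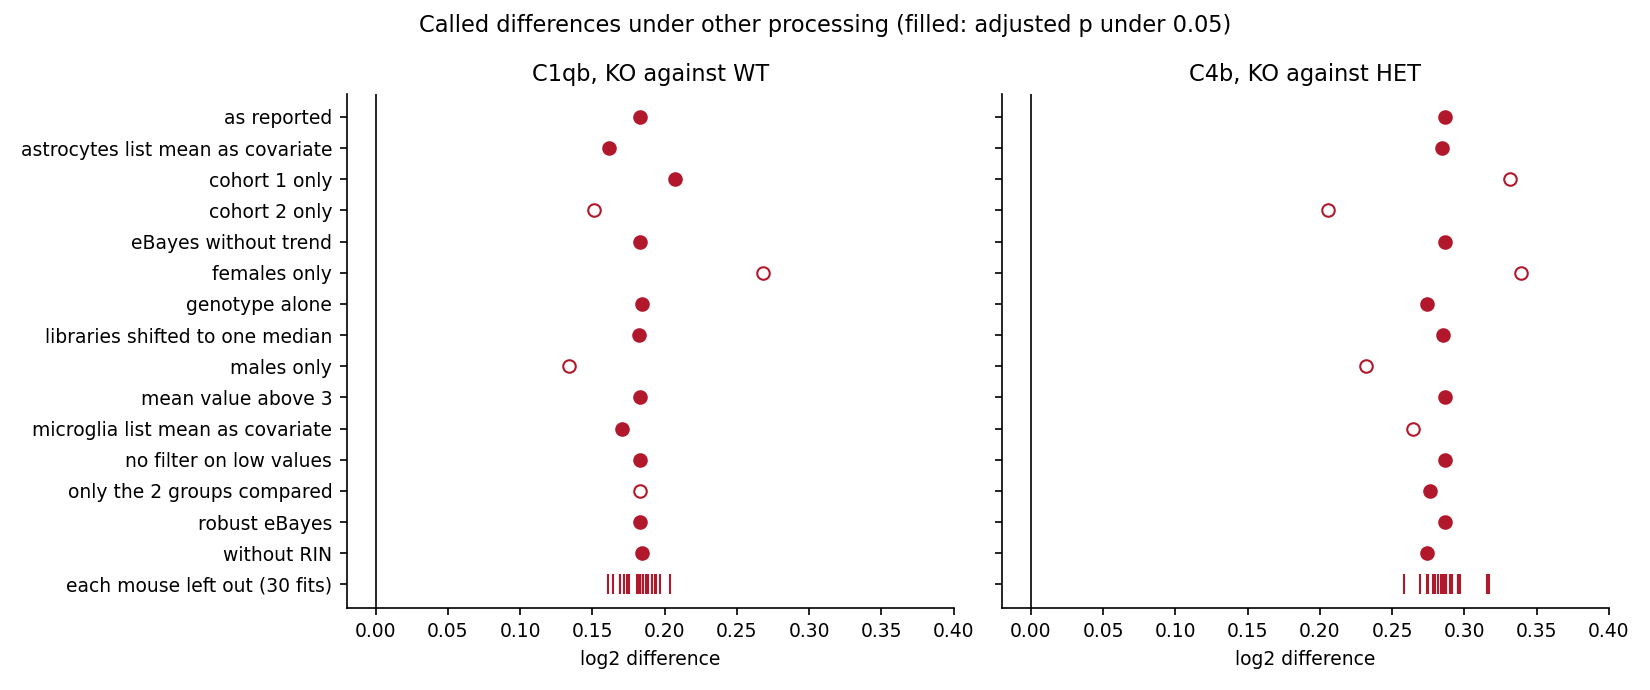
Log2 difference (x axis) of C1qb in KO over WT and of C4b in KO over HET under each alternative way of fitting, with filled points where the adjusted p was under 0.05; the lowest row marks the 30 fits that each leave out 1 mouse. Every point lies above 0, between 0.13 and 0.27 for C1qb and between 0.21 and 0.34 for C4b.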

How the data were processed

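The authors deposited 1 table of log2 RPKM values, per the file headers. RPKM scales reads to gene length and to library size, and the file's name says that the values were also put through conditional quantile normalization. The table came with a column of gene lengths that served only to describe the genes. The aligners were TopHat2 (2.0.12) with Bowtie (1.1.0) on mm10, per the submitters' processing notes. RNA of all mice was extracted with a column kit, per the labels' protocols, and extraction batches are not among the labels used here. The counting tool, annotation release and strand handling were not given in the sources used here, so reads of overlapping or near-identical genes cannot be split with certainty. Depth per library is unknown, and precision was judged from the spread between mice. Library medians lay between 2.82 and 2.91. The values compare libraries and are not absolute RPKM, and a gap between the levels of 2 genes is read with that limit. RIN averaged 9.35 ± 0.49 in KO, 9.23 ± 0.22 in HET and 9.40 ± 0.28 in WT mice (SD, n = 10 each).

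Genes with a mean log2 value above 0 were fitted with limma 3.58.1 in R 4.3.3 over all 30 mice, on genotype with RIN, sex and cohort as covariates and a mean-variance trend. Tests were two-sided, with Benjamini-Hochberg adjustment over 23695 genes and a threshold of 0.05. The fit was tested on simulated data. Correlations used residuals of the same terms and 100000 permutations, adjusted over 35 relations. The residuals were shuffled as if freely exchangeable, which makes these p-values somewhat too small. Transcripts were aligned with Biopython 1.88. Named from the further lists were every gene called in KO against WT in the complement and marker lists (the oligodendrocyte markers by count, with 2 examples), the 2 largest uncalled differences per complement list (1 of them, among the fluid-phase regulators, is not reported here), and the 5 genes most like C1qb, C4b, C3 and Serping1. The 7 genes and all lists were chosen with earlier results of these data known. Mice of different genotypes are not paired. The alternatives tried are given at the end.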

Additional observations from a re-analysis of the deposited data

How the results depend on the processing

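The 21 genotype differences of the 7 complement genes were refitted under up to 44 other settings, and 888 fits kept both the direction and the side of the threshold, 9 kept the direction and lost the call, 0 gained a call and 21 turned the direction. For differences not called as reported, staying uncalled counted as kept. Setting aside the 30 fits without 1 mouse, C1qb in KO over WT kept its call in 10 of 14 settings. C4b in KO over HET kept its call in 9 of those 14. The count of complement genes called in KO against WT, 1, became 0 with only the 2 groups compared (C1qb 0.18, adjusted p = 0.0619), with females only, with males only and with cohort 2 only. That in KO against HET, 1, became 0 with the microglial marker mean as a covariate, with females only, with males only, with cohort 1 only and with cohort 2 only. Leaving out each mouse gave 1 to 1 called in KO against WT, 1 to 1 in KO against HET and 0 to 0 in HET against WT. Over those 30 fits C1qb in KO over WT ranged from 0.16 to 0.20 (adjusted p 0.00399 to 0.0474) and C4b in KO over HET from 0.26 to 0.32 (0.00311 to 0.0419).

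Directions turned only among differences that were not called. With cohort 2 only, HET over WT became 0.0377 for C1qa, 0.0534 for C4b, 0.43 for C3ar1 and 0.0169 for Serping1. KO over WT became 0.0540 for C3 and 0.0785 for Serping1 there, and KO over HET -0.0490 for C3ar1. With cohort 1 only, KO over HET became -0.0391 for Serping1. With females only it became -0.0481 for Serping1, while KO over WT became 0.10 for C3 and HET over WT 0.0375 for C1qc. With males only HET over WT became -0.0053 for C1qb and 0.0413 for C3ar1. The microglial mean turned HET over WT to 0.0020 for C1qa and 0.0237 for C1qc. For C1qb it became -0.0075 with the astrocyte mean and -0.00084 with only the 2 groups compared. Serping1 in KO over HET ranged from -0.0312 to 0.0483 with a mouse left out, below 0 without HET mouse 6 or 9 or KO mouse 4 or 10. The cause of these turns was not tested. 

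The count of all genes called in KO against WT, 237, was 144 with genotype alone, 147 with the astrocyte mean, 114 with only the 2 groups, 482 in cohort 1, 4 in cohort 2, 13 in females, 15 in males, 388 without KO mouse 10 and 138 without WT mouse 4. That in KO against HET, 28, was 42 with the microglial mean, 3 in females, 2 in males, 12 in cohort 1, 1 in cohort 2 and 44 without KO mouse 7. HET against WT, with 1, reached 4 with genotype alone and 3 without RIN or without KO mouse 3. Females against males, with 79, gave 9087 without the filter on low values and 41 without the trend, and the cohort interaction, with 8, gave 2 without the trend. With a filter at a mean above 3, C3 and C3ar1 were not tested. The 8 correlations that passed by Pearson's r kept their sign in the values as deposited. No paired analysis was possible because the replicate numbers follow the order of the samples and pair no mice.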
